A study of Mus musculus with 57 samples.

Results

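The genes described here are 9 targets of the peroxisome proliferator-activated receptors (PPARs) that respond to fatty acids and fasting, *Pdk4*, *Angptl4*, *Ucp3*, *Acot1*, *Cpt1a*, *Cpt1b*, *Cd36*, *Plin2* and *Plin5*. They were taken by symbol from the read count tables of an acute and a chronic doxorubicin (Doxo) study of the mouse heart, and are 9 of 25416 genes in the acute table and 9 of 54658 in the chronic table. All 9 passed the filter on low counts in both studies. Poly(A) RNA of hearts from male C57BL/6 mice was sequenced in 3 groups per study, Ctrl, Doxo and Doxo-NMN. In the acute study, mice obtained at 9 weeks of age received saline (14 Ctrl hearts), a single intraperitoneal injection of 20 mg/kg Doxo (13 Doxo hearts), or the same Doxo dose with nicotinamide mononucleotide (NMN), an NAD+ precursor, injected at 180 mg/kg/day from 5 days before Doxo (13 Doxo-NMN hearts). These hearts were collected 5 days after Doxo, so that only mice that lived to that day are represented. In the chronic study, mice of 14 to 16 weeks received PBS (5 Ctrl hearts) or 5 injections of 4 mg/kg Doxo, 20 mg/kg in total, without NMN (6 Doxo hearts) or with NMN in the drinking water at 500 mg/kg/day (6 Doxo-NMN hearts), and hearts were collected at day 60. No group received NMN alone, so every NMN heart was also a Doxo heart. The studies differed together in laboratory, mouse supplier, sequencing site, vehicle, age, schedule, NMN route and NMN dose.

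PPARs are nuclear receptors that bind fatty acids and act on DNA as partners of the retinoid X receptors (RXRs). In the heart, which takes most of its energy from fatty acids, PPARα raises the enzymes that import and burn fat, above all when food is short and fatty acids are released from adipose tissue. The 9 genes cover successive steps of this programme. *Cd36* encodes the fatty acid transporter of the cell surface, *Plin2* and *Plin5* coat lipid droplets, *Acot1* encodes a cytosolic enzyme that releases fatty acids from acyl-CoA, *Cpt1a* and *Cpt1b* encode the liver and muscle forms of the enzyme that commits fatty acids to mitochondria, *Ucp3* encodes a mitochondrial carrier induced by fasting, *Pdk4* encodes the kinase that switches off pyruvate dehydrogenase and so spares glucose, and *Angptl4* encodes a secreted inhibitor of lipoprotein lipase.

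Sequence around the start sites was examined for the letters that PPAR-RXR pairs are known to bind, as a description of what these promoters hold. Promoters of 300 bases, 250 before and 50 after the annotated start, were available for 7 of the 9 genes, other than *Angptl4* and *Cpt1b*, in RefSeq (GRCm38.p6), 8 promoters in all since *Plin5* has 2. The direct repeat of AGGTCA with 1 base between the copies was searched on both strands with at most 2 mismatches among its 12 scored letters. It was found in the promoters of *Plin2*, *Cd36* and *Ucp3*, and in 3.86% of all 32851 promoters of the table, or 4.40% of its genes. The 3 stretches are shown because they are the only matches among the 8 promoters. They are written 5′ to 3′ on the strand of the gene with the match in capitals, at chr4:86670272-86670284 (minus strand, 225 bases before the start), chr5:17835947-17835959 (minus strand, 63 bases before) and chr7:100472940-100472952 (plus strand, 51 bases before).
Plin2: tttcaGGACCCCTGACCTaagtc
Cd36: ttctcTGGCCTCTGACTTacttg
Ucp3: gaattAGGTTTCAGGTCAgctgg
The *Plin2* and *Cd36* matches read in the sense opposite to the gene and the *Ucp3* match in the same sense. The *Cd36* start used here, chr5:17835896, lies inside the gene as annotated at chr5:17781690-17888801. Sequence around the 5′ end of that annotated gene was not searched. Glucocorticoids also act on several of these genes, and their palindrome, AGAACA and TGTTCT 3 bases apart, searched the same way, was in none of the 8 promoters and in 1.84% of all promoters.

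Total counts ranged from 32409622 to 52102850 per acute heart and from 17769886 to 23862287 per chronic heart, so that 3 counts, used as the detection limit, correspond to at most 0.0926 and 0.169 CPM. All levels in CPM, counts scaled to library size, were normalized by the trimmed mean of M-values. The summed level of 6 cardiomyocyte genes was 28270 to 75050 CPM in the acute study and 50784 to 73307 CPM in the chronic one, with all 6 above the detection limit in every group, as the tissue label states. The sum of 5 red blood cell genes in the chronic study was 132 to 432 CPM in Ctrl hearts. It was 16.2 to 355 CPM in chronic Doxo and 93.3 to 462 CPM in chronic Doxo-NMN hearts. All further values in this paragraph are of the acute study. The red blood cell sum was 437 to 4311 CPM in Ctrl, 1.19 to 338 CPM in Doxo and 0.209 to 2.81 CPM in Doxo-NMN hearts. The sum of 5 atrial genes had medians of 2738, 56.1 and 59.8 CPM in the same order, with ranges of 44.4 to 5555, 32.9 to 1838 and 27.3 to 3875 CPM. The sum of 6 adipocyte genes had medians of 12.03, 0.768 and 2.498 CPM and reached 44.9, 35.8 and 67.1 CPM. The adipokine gene *Lep* was at or below the detection limit in all Doxo hearts. Sums of 6 endothelial genes (691 to 886, 487 to 874 and 518 to 801 CPM) and 6 macrophage genes (106 to 159, 62.6 to 155 and 90.02 to 163 CPM) overlapped between groups. In acute Doxo vs. Ctrl, all 5 red blood cell genes, 1 of 5 atrial, 1 of 5 tested adipocyte, 1 of 6 endothelial and 3 of 6 macrophage genes fell, and 2 cardiomyocyte genes rose and 1 fell, where 30.1% of all tested genes passed in either direction. The part of these markers in the results below was not tested except by fits within hearts below and at or above 100 CPM of *Myl4*, the atrial light chain gene.

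Doxo hearts 6 and 8 of the acute study stood apart from the rest of their group. Doxo heart 6 carried 338 CPM of the red blood cell genes against 1.19 to 3.85 CPM in the other 12 Doxo hearts, and was the highest or the lowest Doxo heart for 20.3% and 20.6% of all tested genes. Its *Pdk4*, *Angptl4* and *Ucp3* levels lay within the Ctrl range. Doxo heart 8 had the highest level of all 9 genes among the 13 Doxo hearts, although it was the highest for 7.68% of all tested genes, and it had the lowest cardiomyocyte sum of its group, 28270 CPM. Results on the acute Doxo group are therefore also given without heart 8 or without both hearts. Heart 8 was singled out by its levels of these same 9 genes, and leaving out both hearts was chosen after seeing the data. Leaving out the highest Doxo heart in itself lowers the fitted Doxo level. The p-values of these fits, here and in the interaction test below, do not allow for that choice.

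Levels in the Ctrl hearts were compared between genes per length, as the CPM divided by the exon length in kilobases (RPKM). In the acute study the order of the medians was *Cd36* (485 RPKM), *Pdk4* (318 RPKM), *Plin5* (61.7 RPKM), *Ucp3* (19.3 RPKM), *Plin2* (14.6 RPKM), *Cpt1a* (6.51 RPKM), *Angptl4* (5.54 RPKM), *Acot1* (5.34 RPKM) and *Cpt1b* (3.70 RPKM). The ranges of *Cd36* and *Pdk4* overlapped, as did those of *Ucp3* and *Plin2* and of each neighbour among the last 4. In the chronic study *Cd36* was again highest at 287 RPKM, and the ranges of *Plin5* (66.1 RPKM) and *Pdk4* (51.4 RPKM) overlapped. *Plin2* followed at 17.96 RPKM and *Ucp3* at 9.52 RPKM. *Cpt1a* (5.98 RPKM), *Cpt1b* (4.85 RPKM) and *Acot1* (3.77 RPKM) overlapped from neighbour to neighbour, and *Angptl4* was lowest at 0.847 RPKM. The *Cpt1b* level is uncertain, because 93.0% of the 50-base stretches of its transcript are also in the readthrough gene Gm44502, which was listed at 0 in all 17 chronic hearts. How reads common to both genes were counted is not given in the sources used here. For *Acot1*, 33.2% of the stretches are shared with *Acot2*, *Acot3* and *Acot5*.

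**Figure D1:**
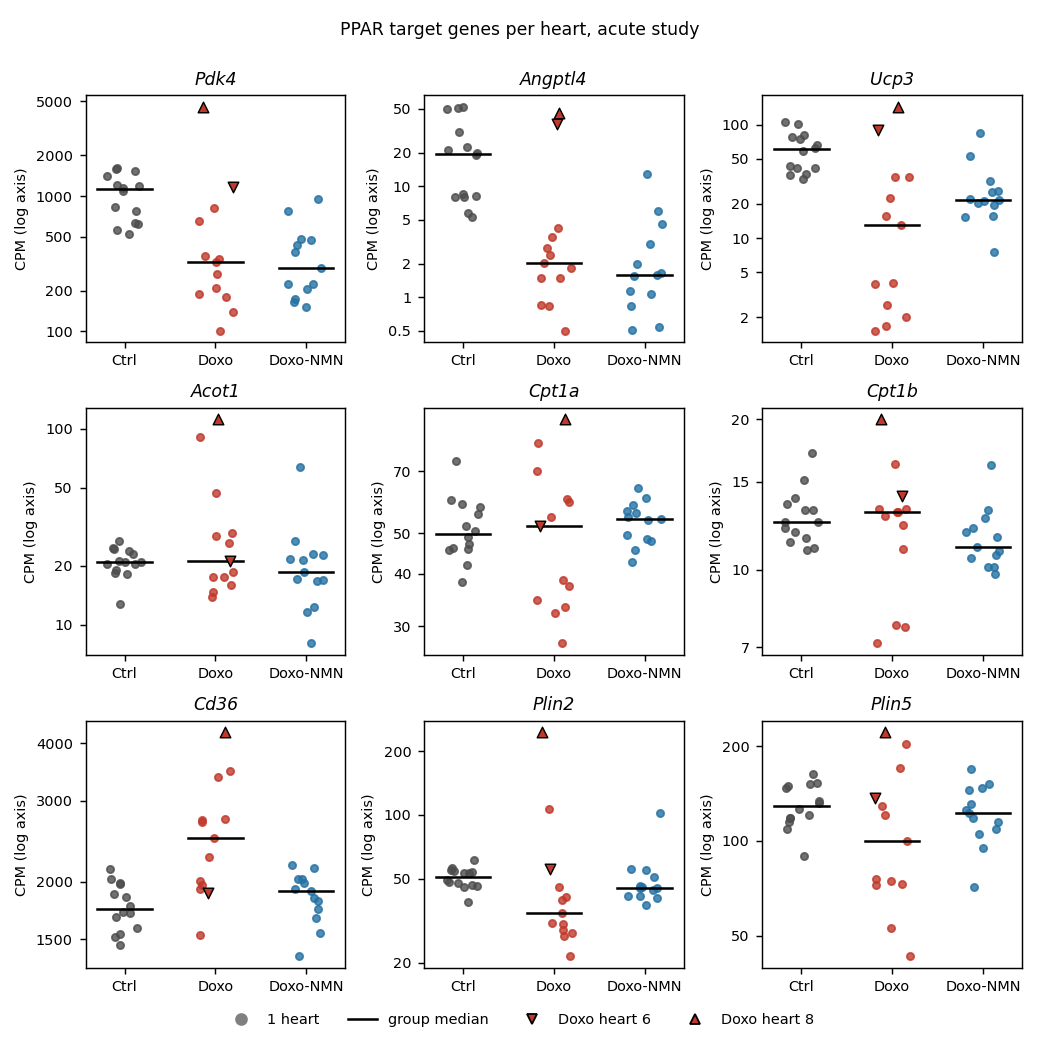
Level of each of the 9 genes in the 40 acute hearts, in CPM on log axes, by group, with 1 point per heart and a line at the group median; triangles mark Doxo hearts 6 and 8. Most Doxo and Doxo-NMN hearts lie below the Ctrl hearts for Pdk4, Angptl4 and Ucp3, and Doxo heart 8 is the highest Doxo point in every panel.

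The first comparison asked how the 9 genes differed 5 days after a single dose of Doxo. *Angptl4* and *Ucp3* fell and *Acot1* rose, so that 3 of 9 genes passed the test (adjusted p under 0.05 and at least 1.5-fold), where 30.1% of all 14240 tested genes did. The median log2 fold change was -0.05 over the 9 genes and -0.0016 over all genes. In whole-heart RNA, less RNA per cell and fewer cells of a type cannot be told apart. The hearts of a study came from 1 cohort of mice, and p-values measure the spread between these hearts.

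*Pdk4* (chr6:5483351-5496309) ranged from 527 to 1597 CPM in Ctrl hearts with a median of 1118 CPM. In Doxo hearts it ranged from 101 to 4580 CPM with a median of 325 CPM, and 9 of 13 hearts lay below the lowest Ctrl heart, which 19.7% of all genes matched or exceeded. Heart 8 lay above the highest Ctrl heart, and hearts 6, 10 and 13 lay within the Ctrl range. Over all hearts the log2 fold change was -0.55 ± 0.42 (SE) with an adjusted p of 0.247 by edgeR's quasi-likelihood test, which did not pass. Without heart 8 it was -1.41 ± 0.33 (adjusted p = 0.00032), a fit in which 29.9% of all genes passed. Without hearts 6 and 8, where 33.1% passed, it was -1.69 ± 0.32 (adjusted p = 1.4e-05, 3.23-fold lower). Limma voom, which gives hearts that deviate less weight, gave -1.63 ± 0.35 (adjusted p = 1.0e-04) with all hearts kept, where 31.2% of all genes passed.

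*Angptl4* (chr17:33773750-33781830) ranged from 5.23 to 52.3 CPM in Ctrl hearts with a median of 19.6 CPM. In 11 of 13 Doxo hearts it was between 0.4997 and 4.22 CPM and thus below every Ctrl heart. At least 11 such hearts were found for 12% of all genes. The remaining Doxo hearts were heart 6 at 36.1 CPM and heart 8 at 45.5 CPM. The log2 fold change was -1.47 ± 0.60 (edgeR adjusted p = 0.029, 2.77-fold lower). Without heart 6 it was -1.97 ± 0.60, without heart 8 it was -2.19 ± 0.58 and without both it was -3.46 ± 0.51 (adjusted p = 2.0e-07). The call was lost when Ctrl heart 9, 11 or 13, those with the highest *Angptl4* levels, was left out (adjusted p of 0.0529 to 0.0545).

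*Ucp3* (chr7:100472990-100486432) ranged from 33.1 to 104 CPM in Ctrl hearts with a median of 60.4 CPM. Doxo hearts spread from 1.53 to 144 CPM with a median of 13.1 CPM, and 9 of 13 lay below every Ctrl heart, which 19.7% of all genes matched or exceeded. Among these 9, hearts 3, 4, 5, 10, 11 and 12 were at 1.53 to 3.998 CPM and the others at 13.1 to 22.7 CPM. The log2 fold change was -1.11 ± 0.50 (edgeR adjusted p = 0.047, 2.15-fold lower), close to the threshold. It lost its call in 23 of the 40 fits that left out 1 heart, with adjusted p up to 0.0725: without Ctrl heart 2, 7 or any of 9 to 14, Doxo heart 1 to 5 or 9 to 13, or Doxo-NMN heart 1, 3, 5, 9 or 11. Without heart 6 it was -1.39 ± 0.50, without heart 8 it was -1.70 ± 0.47 and without both it was -2.30 ± 0.44 (adjusted p = 1.6e-05, 4.94-fold lower).

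Fits within hearts rich and poor in atrial RNA gave unlike values for these 3 genes, with Doxo hearts 6 and 8 both among the poor. Within the 8 Ctrl and 5 Doxo hearts at or above 100 CPM of *Myl4*, log2 fold changes were -2.16 ± 0.31 for *Pdk4*, -3.22 ± 0.58 for *Angptl4* and -2.50 ± 0.56 for *Ucp3*, with edgeR adjusted p of 1.3e-05, 1.2e-04 and 8.9e-04, where 28.5% of all genes passed. Within the 6 Ctrl and 8 Doxo hearts below 100 CPM, which include hearts 6 and 8, they were 0.03 ± 0.63, -0.73 ± 0.90 and -0.52 ± 0.70 and none of the 3 passed, where 30.0% of all genes did. The difference between these subsets was not tested. The hearts below 100 CPM were not fitted without hearts 6 and 8, so atrial RNA and these hearts cannot be told apart here.

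*Cd36* (chr5:17781690-17888801) was the most abundant of the 9 genes and was higher in Doxo hearts. Its levels were 1456 to 2129 CPM in Ctrl hearts with a median of 1742 CPM, and 1533 to 4225 CPM in Doxo hearts with a median of 2487 CPM, and 8 of 13 Doxo hearts lay above the highest Ctrl heart, which 24.4% of all genes matched or exceeded. The log2 fold change of 0.53 ± 0.11 passed the adjusted p-value (3.5e-05, edgeR) but not the limit of 1.5-fold. It was 0.45 ± 0.10 without heart 8 and 0.48 ± 0.10 without both hearts.

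*Acot1* (chr12:84009490-84018371) had nearly equal medians, 20.9 CPM in Ctrl and 21.2 CPM in Doxo hearts. The Ctrl hearts ranged from 12.8 to 26.8 CPM, and 5 Doxo hearts lay above them, heart 8 at 112 CPM, heart 13 at 91.2 CPM, heart 4 at 47.1 CPM, heart 1 at 29.6 CPM and heart 5 at 28.3 CPM. At least 5 Doxo hearts above every Ctrl heart were found for 35.1% of all genes. The log2 fold change was 0.73 ± 0.28 (edgeR adjusted p = 0.021) and was no longer called without heart 8 (0.43 ± 0.25, adjusted p = 0.12), without heart 13 (0.52, adjusted p = 0.082) or without hearts 6 and 8 (0.47 ± 0.26, adjusted p = 0.10). Among its neighbours on chromosome 12 that encode related thioesterases, *Acot4* rose (0.74 ± 0.22), *Acot3* fell (-1.03 ± 0.30) and *Acot2*, the most abundant, was at 0.08 ± 0.23 with an adjusted p of 0.78. Without hearts 6 and 8 *Acot4* was at 0.47, below 1.5-fold, and *Acot2* at -0.27. Values of these copies are uncertain where their sequences are shared.

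*Cpt1a* (chr19:3322334-3385733) and *Cpt1b* (chr15:89416405-89425863) did not pass the test. *Cpt1a* ranged from 38.3 to 74.2 CPM in Ctrl and from 27.3 to 93.0 CPM in Doxo hearts, with medians of 49.7 and 51.98 CPM and a log2 fold change of 0.01 ± 0.14. Doxo hearts spread to both sides of the Ctrl range. *Cpt1b* ranged from 10.96 to 17.1 CPM in Ctrl and from 7.13 to 19.97 CPM in Doxo hearts, with a log2 fold change of -0.05 ± 0.11. The log2 ratio of *Cpt1a* to *Cpt1b* counts was 1.996 ± 0.36 (SD) in Ctrl, 2.02 ± 0.50 in Doxo and 2.20 ± 0.25 in Doxo-NMN hearts. Since the *Cpt1b* level is uncertain, as given above, this ratio is not read as the balance between the liver and the muscle form. Differences were 0.02 for Doxo vs. Ctrl, 0.18 for Doxo-NMN vs. Doxo and 0.20 for Doxo-NMN vs. Ctrl, with p of 0.903, 0.264 and 0.105 in two-sided permutation tests (100000 resamples, adjusted over the 3 comparisons to 0.903, 0.397 and 0.315).

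The lipid droplet genes spread in both directions. *Plin2* (chr4:86648386-86670060) was 38.7 to 60.9 CPM in Ctrl hearts with a median of 51.1 CPM, and 21.5 to 245 CPM in Doxo hearts with a median of 34.5 CPM. Of the 13 Doxo hearts, 7 lay below every Ctrl heart (26.6% of all genes had at least 7), while hearts 8 and 13 lay above at 245 and 106 CPM. The fitted log2 fold change of 0.16 ± 0.25 (edgeR adjusted p = 0.579) therefore had the opposite sign to the change of the medians. It was -0.31 ± 0.17 without heart 8 and -0.36 ± 0.17 without hearts 6 and 8 (adjusted p = 0.099 and 0.059). *Plin5* (chr17:56111601-56117596) was 89.6 to 163 CPM in Ctrl and 43.04 to 221 CPM in Doxo hearts, with hearts on both sides of the Ctrl range and a log2 fold change of -0.20 ± 0.17 that did not pass.

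**Figure D2:**
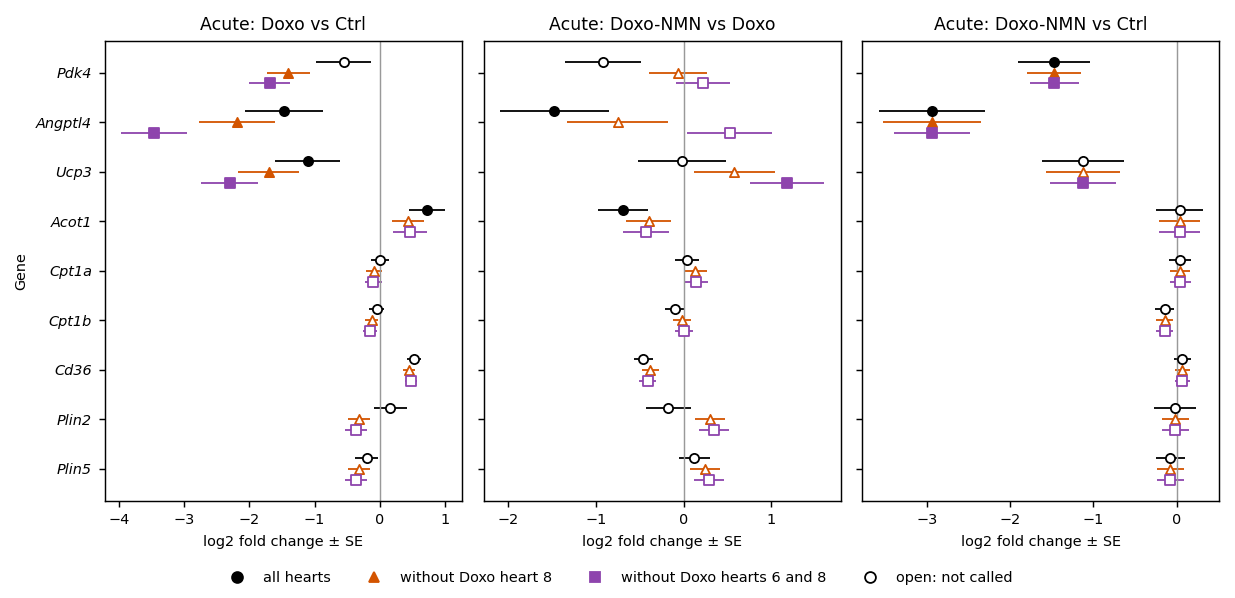
Log2 fold changes with their standard errors for the 9 genes in the 3 acute comparisons, fitted with all hearts, without Doxo heart 8, and without Doxo hearts 6 and 8; filled symbols passed the test and open symbols did not. The Doxo vs. Ctrl values of Pdk4, Angptl4 and Ucp3 are -1.69, -3.46 and -2.30 without both hearts. Leaving out the highest Doxo heart, heart 8, in itself lowers the fitted Doxo level. Neither heart is in the groups of Doxo-NMN vs. Ctrl, so the values of that comparison could hardly move.

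The second comparison set the hearts that received NMN with Doxo against Ctrl hearts. *Pdk4* and *Angptl4* fell, 2 of 9 genes where 7.11% of all tested genes passed and 3.79% passed as lower, and *Ucp3* did not pass at -1.13. *Pdk4* was 152 to 945 CPM in Doxo-NMN hearts with a median of 293 CPM, and 11 of 13 hearts lay below the lowest Ctrl heart. *Angptl4* was 0.503 to 12.95 CPM with a median of 1.57 CPM, and *Ucp3* 7.52 to 84.7 CPM with a median of 21.6 CPM, each again with 11 of 13 hearts below every Ctrl heart. At least 11 such hearts were found for 3.1% of all genes. Log2 fold changes were -1.47 ± 0.43 for *Pdk4* (2.77-fold lower), -2.94 ± 0.64 for *Angptl4* (7.67-fold lower) and -1.13 ± 0.50 for *Ucp3*, with edgeR adjusted p of 0.010, 8.2e-04 and 0.089. *Ucp3* passed at the same size of change when hearts 6 and 8 were left out of the Doxo group (SE 0.39, adjusted p = 0.027, 7.49% of all genes), in limma voom (adjusted p = 6.1e-04, 8.33% of all genes), in a fit of only these groups (adjusted p = 0.0013), and at -1.39 without Doxo-NMN heart 12 (adjusted p = 0.037). Within hearts below 100 CPM of *Myl4* none of the 9 genes passed (*Pdk4* -1.27 ± 0.61, *Angptl4* -2.64 ± 0.90, 4.03% of all genes), while *Pdk4* and *Angptl4* passed within hearts at or above it (-1.86 ± 0.33 and -3.29 ± 0.64, 4.06% of all genes).

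The other 6 genes showed no call in Doxo-NMN vs. Ctrl and had log2 fold changes between -0.15 and 0.07. *Cd36* was 1375 to 2176 CPM in Doxo-NMN hearts with a median of 1907 CPM, *Plin2* 37.6 to 102 CPM with a median of 45.3 CPM and *Plin5* 71.4 to 169 CPM with a median of 123 CPM. *Cpt1a* was 42.8 to 64.1 CPM and *Cpt1b* 9.82 to 16.2 CPM. *Acot1* was 8.04 to 63.7 CPM with a median of 18.6 CPM, and reached both below and above the Ctrl range.

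The third comparison, Doxo-NMN vs. Doxo, asked what NMN changed in Doxo-treated mice. It shares its Doxo hearts with the first comparison and its Doxo-NMN hearts with the second. *Angptl4* (-1.47 ± 0.62, edgeR adjusted p = 0.044) and *Acot1* (-0.69 ± 0.29, adjusted p = 0.040) were called lower, 2 of 9 genes where 17.1% of all tested genes passed and 8.88% passed as lower. The medians of *Angptl4* were 2.01 CPM in Doxo hearts and 1.57 CPM in Doxo-NMN hearts, and all 13 Doxo-NMN hearts lay within the Doxo range. Without Doxo heart 8 none of the 9 genes was called (*Angptl4* -0.75 ± 0.58, *Acot1* -0.40 ± 0.26, 16.7% of all genes), and without heart 6 *Angptl4* was not called (-0.97 ± 0.60, 20.9% of all genes). Leaving out Doxo-NMN heart 1, 3, 4, 5, 7 or 8 also ended both calls, Doxo-NMN heart 9, 10, 11 or 13 that of *Angptl4*, and Doxo heart 4 or 13 or Doxo-NMN heart 2 that of *Acot1*, with adjusted p of 0.0531 to 0.135. *Pdk4* was at -0.92 ± 0.43 (adjusted p = 0.069). It passed without Doxo heart 3, 4, 5 or 11 or Doxo-NMN heart 6 or 12 (adjusted p from 0.0316), and was at 0.22 ± 0.31 without Doxo hearts 6 and 8.

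All 13 Doxo-NMN hearts lay within the Doxo range of *Ucp3*. The 6 Doxo hearts under 5 CPM lay below the lowest Doxo-NMN heart at 7.52 CPM, and at least 6 such Doxo hearts were found for 17.6% of all genes. The log2 fold change over all hearts was -0.02 ± 0.50 (edgeR adjusted p = 0.978). Without hearts 6 and 8 it was 1.18 ± 0.43 (adjusted p = 0.017, 2.26-fold higher in Doxo-NMN), the only one of the 9 genes called where 20.7% of all genes passed. Limma voom gave 1.61 ± 0.48 with all hearts (adjusted p = 0.0044, 20.1% of all genes). Without heart 8 alone it was 0.58 ± 0.46 and did not pass. *Cd36* was lower in Doxo-NMN hearts at -0.46 ± 0.11 (adjusted p = 5.6e-04), below 1.5-fold, and at -0.38 ± 0.10 without heart 8 (adjusted p = 0.0015). *Cpt1a*, *Cpt1b*, *Plin2* and *Plin5* were at 0.04, -0.10, -0.18 and 0.12, and none passed.

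Among all 13 Doxo hearts most of the other 8 genes varied together with *Pdk4*. How many of all tested genes do so was not counted in any group, so this is not read as particular to these genes. Across the 13 Doxo hearts, on log2 CPM, *Pdk4* correlated with *Ucp3* (Pearson's r = 0.84, p = 2.1e-04, Spearman's rho = 0.89, p = 1.8e-04), with *Angptl4* (r = 0.80, p = 0.0024, rho = 0.62, p = 0.027) and with *Plin2* (r = 0.86, p = 0.0010, rho = 0.71, p = 0.0080) in permutation tests. Adjusted over the 8 relations of *Pdk4* with the other genes, the p-values of r were 0.0017, 0.0056 and 0.0040. Of the 8 relations, 7 passed by adjusted r, all but *Cd36* (r = 0.43), and 5 by adjusted rho, which *Acot1* and *Cpt1b* did not pass either. Hearts 6 and 8 were the farthest from the median of *Pdk4*. Without them r was 0.68 for *Ucp3*, 0.30 for *Angptl4* and 0.64 for *Plin2*, and none of the 8 relations passed by adjusted r, so that these rest in part on both hearts. By adjusted rho 1 passed, that with *Ucp3* (rho = 0.82, adjusted permutation p = 0.0275). Without heart 8 alone 4 passed by r and 2 by rho, and without heart 6 alone 8 passed by r and 2 by rho, those with *Ucp3* and *Plin5* by rho in both cases.

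In Doxo-NMN hearts, *Pdk4* correlated with *Angptl4* (r = 0.87, p = 1.5e-04, rho = 0.82, p = 0.0012 in permutation tests), with r = 0.70 without the 2 hearts farthest from the median, and no other of the 8 relations passed. Over all 14 Ctrl hearts r with *Pdk4* was 0.93 for *Angptl4* and 0.94 for *Ucp3* (both 4.0e-05 by permutation, adjusted over the 8 relations). Of these relations, 3 passed by adjusted r and 2 by adjusted rho. Ctrl hearts were also split at 1000 CPM of *Pdk4*, a cut chosen after seeing the data. This gave a lower range of 6 hearts at 527 to 834 CPM and a higher range of 8 hearts at 1090 to 1597 CPM. *Angptl4* was at 5.23 to 8.45 CPM in the lower and 19.2 to 52.3 CPM in the higher range, and *Ucp3* at 33.1 to 42.8 and 58.4 to 104 CPM. For *Angptl4* and *Ucp3* these ranges did not overlap, while for *Pdk4* the cut itself sets them apart. The cut narrows *Pdk4*, so r within a range cannot be set against r over a whole group. Within the lower range r with *Pdk4* was 0.36 for *Angptl4* and 0.54 for *Ucp3* (exact permutation p = 0.50 and 0.29), and within the higher range 0.78 and 0.80 (exact permutation p = 0.044 and 0.023, both 0.088 when adjusted over these 4 relations). The lower range held 3 and the higher 5 of the hearts at or above 100 CPM of *Myl4*.

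**Figure D3:**
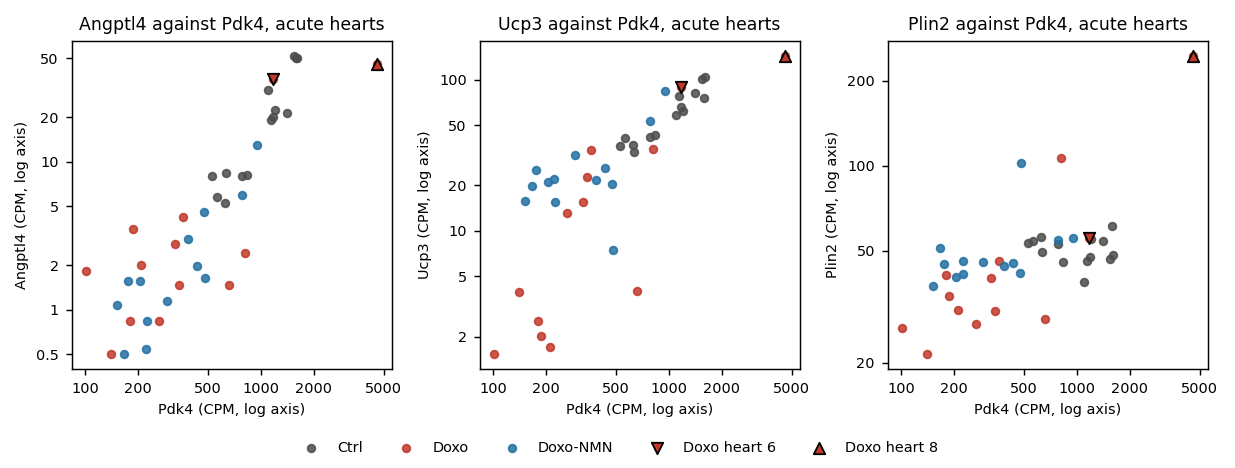
Levels of Angptl4, Ucp3 and Plin2 against Pdk4 in the 40 acute hearts, in CPM on log axes, with 1 point per heart coloured by group; triangles mark Doxo hearts 6 and 8. Ctrl hearts with less Pdk4 also lie lower for Angptl4 and Ucp3, and Doxo heart 8 lies at the far end of Pdk4 at 4580 CPM.

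Likeness of pattern was described over all tested genes as Pearson's r of log2 CPM across the 40 acute hearts after the mean of each group was removed. The genes most like *Pdk4* were *Angptl4* (r = 0.82) and *Ucp3* (r = 0.78). *Ucp3* was most like *Gpam* (r = 0.94), which encodes the first enzyme of glycerolipid synthesis, and *Dock8* (r = 0.89). *Angptl4* was most like *Pdk4* and then *Klf11* (r = 0.75). *Cd36* was most like *Acadl* (r = 0.89) and *Decr1* (r = 0.87), which encode enzymes of mitochondrial fatty acid oxidation. *Plin2* was most like *Acot2* and *Tacc2* (both r = 0.86), *Plin5* like *Bcl2l13* (r = 0.93) and *Mief2* (r = 0.90), and *Acot1* like *Fbp2* (r = 0.86) and *Rab11b* (r = 0.85). *Cpt1a* was most like *Tshz1* (r = 0.81) and *Npc1* (r = 0.79), and *Cpt1b* like *Lrrc39* (r = 0.76) and *Ywhag* (r = 0.74). All points share library, depth and the 2 hearts that stand apart.

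In the chronic study none of the 9 genes passed the test (adjusted p under 0.05) in any comparison. The atrial sum was 69.1 to 205 CPM in Ctrl, 124 to 536 CPM in Doxo and 192 to 292 CPM in Doxo-NMN hearts of this study, and its part in these values was not tested. Few genes did at all: 9 of 14960 genes in Doxo vs. Ctrl (0.0602%), none in Doxo-NMN vs. Doxo (0.0%) and 6 in Doxo-NMN vs. Ctrl (0.0401%) by edgeR, against 1174, 441 and 707 genes at an unadjusted p under 0.05.

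*Plin2* came nearest to a difference. It was 62.5, 58.2, 63.1, 69.2 and 70.2 CPM in the 5 Ctrl hearts, 48.1 to 60.3 CPM with a median of 54.6 CPM in Doxo, and 51.1 to 64.0 CPM with a median of 57.0 CPM in Doxo-NMN hearts. Of the 6 Doxo hearts, 5 lay below every Ctrl heart, which 1.4% of all genes matched or exceeded. The log2 fold change was -0.24 ± 0.08 with an edgeR p of 0.0091 before and 0.534 after adjustment. *Cpt1b* was 20.6, 12.4, 15.2, 17.6 and 16.4 CPM in Ctrl hearts and 15.3 to 22.2 CPM with a median of 20.9 CPM in Doxo hearts. All Doxo hearts but heart 1 lay between 20.3 and 22.2 CPM, and the log2 fold change was 0.29 ± 0.14 (edgeR p = 0.043 before and 0.624 after adjustment).

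*Pdk4*, *Angptl4* and *Ucp3* overlapped widely between the chronic groups. *Pdk4* was 121, 163, 230, 180 and 214 CPM in Ctrl hearts, 89.0 to 268 CPM in Doxo hearts (median 211 CPM) and 92.5 to 221 CPM in Doxo-NMN hearts (median 143 CPM). *Angptl4* was 6.04, 2.42, 2.73, 3.30 and 2.999 CPM in Ctrl hearts, 0.330 to 7.70 CPM in Doxo hearts and 1.58 to 7.38 CPM with Doxo-NMN. Doxo hearts lay both below and above the Ctrl range for each of these genes. *Ucp3* was 29.8, 23.3, 39.3, 26.003 and 37.6 CPM in Ctrl, 8.96 to 55.7 CPM in Doxo hearts and 17.1 to 59.3 CPM with Doxo-NMN. Log2 fold changes for Doxo vs. Ctrl were 0.07 ± 0.27, 0.17 ± 0.51 and 0.03 ± 0.33, and for Doxo-NMN vs. Doxo -0.36 ± 0.26, -0.49 ± 0.49 and -0.07 ± 0.32.

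The remaining genes differed little. *Cd36* was 835, 1162, 1112, 1030 and 1016 CPM in Ctrl, 936 to 1076 CPM in Doxo hearts and 885 to 1010 CPM with Doxo-NMN, and all treated hearts lay within the Ctrl range. *Plin5* was 79.9, 122, 144, 140 and 138 CPM in Ctrl, 101 to 140 CPM in Doxo hearts and 75.7 to 146 CPM with Doxo-NMN. *Cpt1a* was 40.1, 45.7, 49.1, 45.1 and 55.3 CPM in Ctrl, 46.6 to 56.8 CPM in Doxo hearts and 33.4 to 55.9 CPM with Doxo-NMN. *Acot1* was 6.92, 15.01, 14.8, 15.5 and 12.1 CPM in Ctrl, 7.77 to 25.3 CPM in Doxo hearts and 7.53 to 15.7 CPM with Doxo-NMN. Log2 fold changes of these 4 genes lay between -0.09 and 0.11 for Doxo vs. Ctrl. The log2 ratio of *Cpt1a* to *Cpt1b* counts was 1.53 ± 0.37 in Ctrl, 1.35 ± 0.21 in Doxo and 1.34 ± 0.16 in Doxo-NMN hearts (SD), with exact permutation p of 0.320 for Doxo vs. Ctrl, 0.989 for Doxo-NMN vs. Doxo and 0.290 for Doxo-NMN vs. Ctrl. As in the acute study, it rests on uncertain *Cpt1b* counts.

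**Figure D4:**
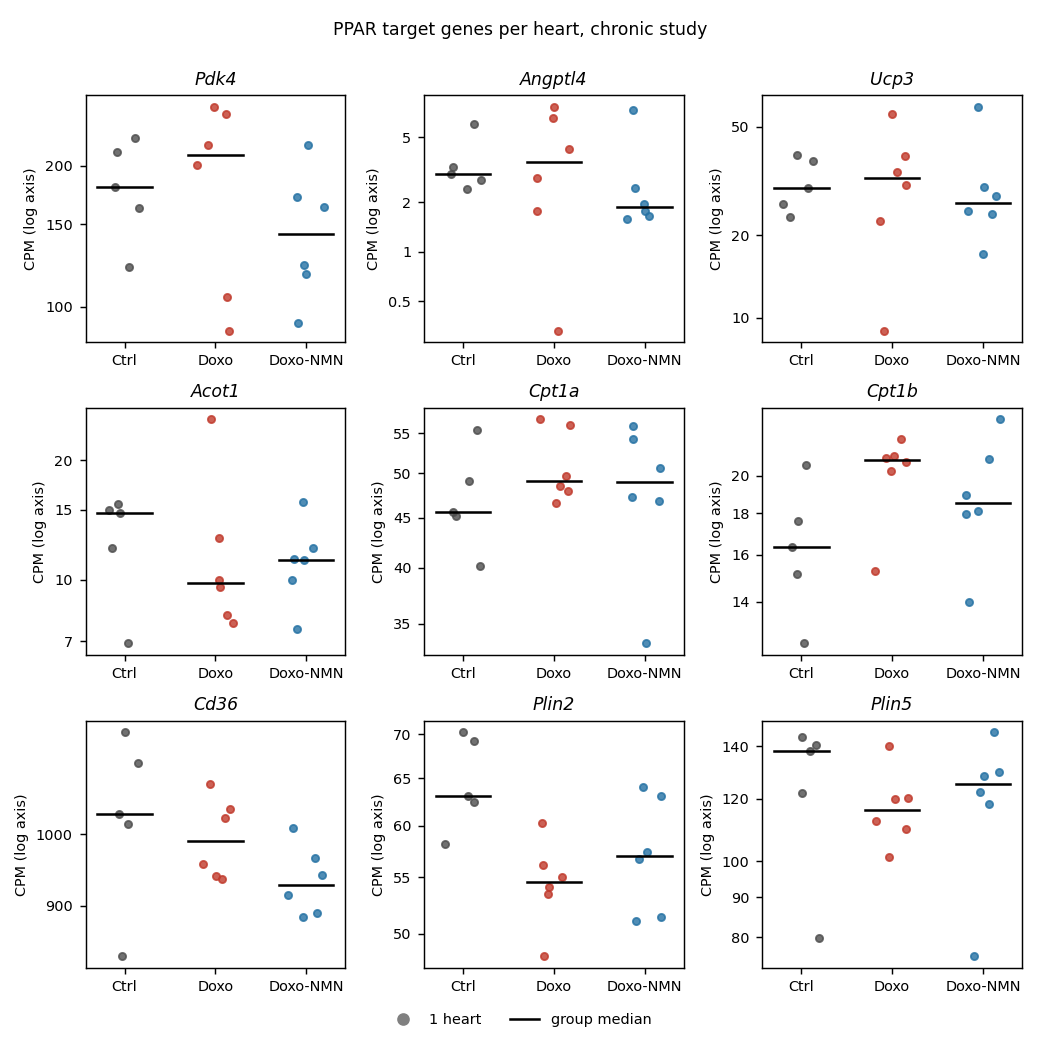
Level of each of the 9 genes in the 17 chronic hearts, in CPM on log axes, by group, with 1 point per heart and a line at the group median. Plin2 is the gene for which most Doxo hearts, 5 of 6, lie below every Ctrl heart, and the groups overlap in all panels.

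Whether Doxo acted unlike in the acute and the chronic regimen was tested in edgeR as an interaction over the Ctrl and Doxo hearts. *Cd36* was the only one of the 9 genes whose effect differed, being more positive in the acute study by 0.58 ± 0.20 on the log2 scale (adjusted p = 0.036), where 19.3% of 14965 genes passed. The values of *Pdk4*, *Angptl4* and *Ucp3* were -0.62 ± 0.76, -1.64 ± 1.13 and -1.14 ± 0.92 and did not pass. Without acute Doxo hearts 6 and 8 they were -1.76 ± 0.48, -3.63 ± 0.77 and -2.34 ± 0.73 (adjusted p = 0.0062, 7.2e-04 and 0.014) and passed along with *Cd36* at 0.53 ± 0.17, 4 of 9 genes where 31.4% passed. Limma voom with all hearts called these 4 and *Cpt1b* (46.9% of all genes). The *Cd36* call was lost without acute Doxo heart 8 (0.49, adjusted p = 0.052), chronic Ctrl heart 2, 3, 4 or 5 or chronic Doxo heart 1, 3 or 6 (adjusted p up to 0.079). Study, laboratory, mouse supplier, sequencing site, vehicle, age, schedule and table differ together and cannot be told apart.

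Genes of the surrounding pathways were taken from lists of 86 further genes, of which 81 were tested in the acute study. In acute Doxo vs. Ctrl, 7 rose, 13 fell and 61 did not pass, with a median log2 fold change of -0.08. Of all tested genes 30.1% passed in this comparison. Among 6 nuclear receptor genes only *Rxrg*, an RXR of striated muscle, fell (-0.75 ± 0.13), and *Rxrb* was at 0.12 ± 0.06. *Ppara*, *Ppard* and *Pparg* were at -0.17, -0.01 and -0.22 and none passed; they were named after their values were seen. In fatty acid uptake and activation 1 of 11 tested genes rose and 2 fell. *Lpl*, the lipoprotein lipase gene, rose from a median of 5542 to 13568 CPM (1.22 ± 0.12), and *Acsl5*, an acyl-CoA synthetase gene, fell (-0.64 ± 0.09). In triglyceride storage and breakdown 2 of 10 rose and 3 fell. *Plin4*, another lipid droplet coat gene, rose from a median of 327 to 1020 CPM (1.596 ± 0.13, edgeR adjusted p = 9.3e-12), and *Pnpla2*, the gene of adipose triglyceride lipase, rose by 0.95 ± 0.15.

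In the carnitine shuttle 2 of 7 genes fell, *Slc22a5*, the carnitine transporter gene (-0.77 ± 0.15), and *Cpt2* (-0.63 ± 0.15), and none rose. None of 15 genes of mitochondrial beta-oxidation passed, and the nearest were *Hadh* (-0.37 ± 0.09) and *Acadl* (0.31 ± 0.09), below 1.5-fold. Among 15 genes of peroxisomal oxidation and thioesterases 2 rose and 2 fell, and *Acot9* was at 0.46 ± 0.08, below 1.5-fold. Among 5 ketone body genes 2 rose and 1 fell. *Oxct1*, whose enzyme is needed to use ketones, fell (-0.71 ± 0.16). Among 8 genes of the pyruvate dehydrogenase switch 1 fell, *Pdp2*, the phosphatase gene that opposes *Pdk4* (-0.95 ± 0.22), and *Pdk1* was at 0.45 ± 0.09, below 1.5-fold. Among the 4 tested of 8 other uncoupling and fasting-induced genes 1 fell, *Aqp7*, a glycerol channel gene (-1.63 ± 0.29), and *Txnip* was at -0.43 ± 0.23.

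In Doxo-NMN vs. Doxo, 4 of these 81 genes were called higher and 5 lower, where 17.1% of all tested genes passed. *Plin4* (-0.76 ± 0.13), *Lpl* (-0.73 ± 0.12), *Pnpla2* (-0.68 ± 0.15) and *Acot4* (-0.69 ± 0.23) were among the lower ones in Doxo-NMN hearts, and *Aqp7* (1.03 ± 0.29) and *Pdp2* (0.66 ± 0.22) were among the higher ones. The medians in Doxo-NMN hearts were 541 CPM for *Plin4* and 8514 CPM for *Lpl*, on the Ctrl side of the Doxo medians. Apart from *Acot4*, these genes were named for their small adjusted p in Doxo vs. Ctrl, which uses the same Doxo hearts. That choice in itself favours values that move back toward Ctrl, so these values are not read as a reversal by NMN. In Doxo-NMN vs. Ctrl 2 were called higher, among them *Plin4* at 0.83, and 2 lower, where 7.11% of all tested genes passed. Of the 86 genes 79 were tested in the chronic study and none was called, where at most 0.0602% of all genes passed. In the interaction test, 5 and 2 of 82 tested genes had a more positive or more negative Doxo effect in the acute study, where 19.3% of all genes passed.

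**Figure D5:**
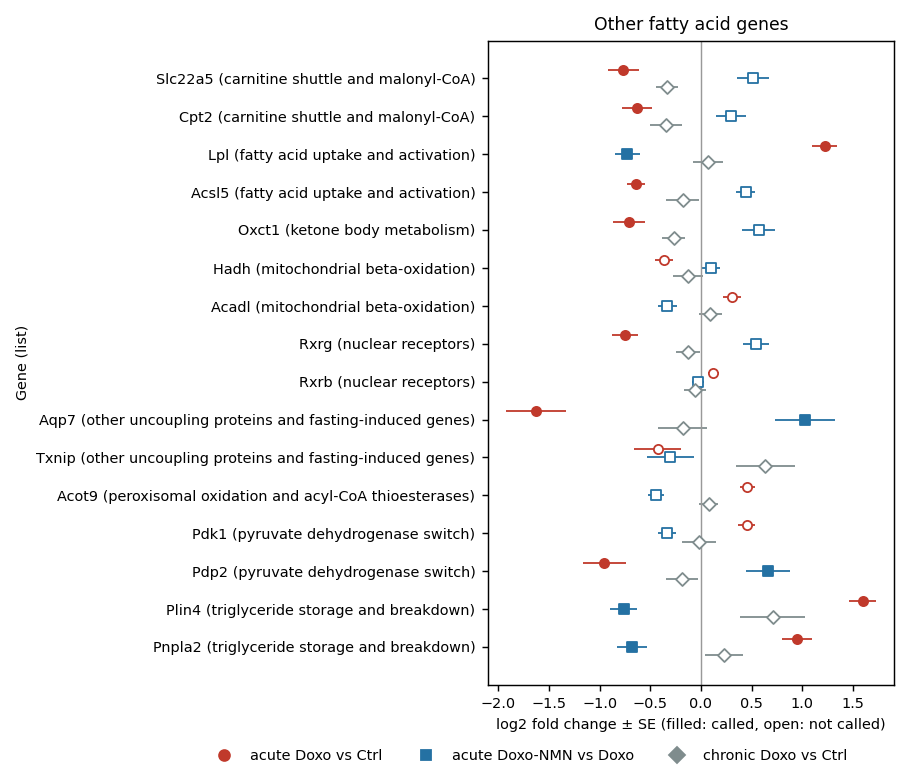
Log2 fold changes with their standard errors for list genes with the smallest adjusted p in acute Doxo vs. Ctrl, at most 2 per list, in acute Doxo vs. Ctrl, acute Doxo-NMN vs. Doxo and chronic Doxo vs. Ctrl; filled symbols passed the test. Among the genes plotted Plin4 lies highest in acute Doxo vs. Ctrl, at 1.596, Aqp7 lowest, at -1.63, and no chronic symbol is filled.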

How the data were processed

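Heart RNA of 57 mice was analysed, 40 acute and 17 chronic. The authors selected poly(A) RNA, aligned the reads to mm10 and counted them per gene; the submitters' processing notes name STAR 2.7.3a and featureCounts 2.0.0, and the annotation and strand setting are not given in the sources used here. The deposited values are the authors' counts, whole numbers without normalization. Of the low counts of the acute study 73.6% were even (median over hearts, 40.3% in the chronic study), and counts divided by 2 were tried.

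Groups were taken from the labels. For each study 1 model of its 3 groups was fitted to the genes passing filterByExpr (R 4.3.3, edgeR 4.0.16, TMM, quasi-likelihood F-test) and adjusted by Benjamini-Hochberg over all tested genes. Genes were called at an adjusted p under 0.05 and, in the acute study, a fold change of at least 1.5. SE are those of the fitted log2 fold change. Ratios and correlations were tested by permutation with scipy 1.17.1, exactly in groups under 10 hearts and otherwise with 100000 resamples. Alternatives were DESeq2 1.42.0, limma 3.58.1 (voom with sample weights), RLE factors, other filters and fold cutoffs, fits of only 2 groups, the replicate number as a block, fits below and at or above 100 CPM of *Myl4*, and each heart left out (in the interaction test each chronic heart and acute Doxo hearts 6 and 8); leaving out Doxo hearts 6 and 8 together, acute Doxo heart 8 in the interaction test, and the split of Ctrl hearts by *Pdk4* at 1000 CPM were added after seeing the data. Scripts were tested on simulated data. Gene positions are from GENCODE (GRCm38) and promoters from RefSeq (GRCm38.p6).

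The 9 genes and all lists were chosen with earlier results of these data known. Named are all 9 genes, the 2 genes of each other list with the smallest adjusted p in acute Doxo vs. Ctrl, the *Acot1* neighbours *Acot2*, *Acot3* and *Acot4*, and the 2 genes most like each of the 9. *Ppara*, *Ppard*, *Pparg* and the marker *Lep* were named outside this rule, after their values were seen. Of the genes of the rule, 2 list genes are not reported here.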

Additional observations from a re-analysis of the deposited data

Results flagged for a closer look

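In the chronic study, 5 of 27 combinations of gene and group held a heart whose gap to its nearest neighbour exceeded Dixon's 95% critical value, where chance gives about 1 in 20. *Angptl4* was 6.04 CPM in Ctrl heart 1 against 2.42 to 3.30 CPM in the other 4 Ctrl hearts, and 7.38 CPM in Doxo-NMN heart 6 against 1.58 to 2.45 CPM in the other 5. The same Doxo-NMN heart 6 had 59.3 CPM of *Ucp3*, with 17.1 to 30.1 CPM in the others of its group. *Acot1* was 25.3 CPM in Doxo heart 2 and 7.77 to 12.7 CPM in the other Doxo hearts, and *Cpt1b* was 15.3 CPM in Doxo heart 1 and 20.3 to 22.2 CPM in the others. The acute groups, with 13 or 14 hearts, were not examined in this way.

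The Doxo effect on *Cd36* differed between the studies by 0.58 on the log2 scale, more positive in the acute study, in the edgeR interaction test (adjusted p = 0.036). The same *Cd36* call was not made without acute Doxo heart 8, where the difference was 0.49.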

How the results depend on the processing

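Across 990 single-gene values recomputed under other settings, 869 kept their direction and their side of the threshold, 51 lost and 22 gained the call and 48 changed sign. Across 2776 values with 1 heart left out the numbers were 2636, 63, 9 and 68. No chronic call was gained under any setting. Each value below is a log2 fold change or difference under the named setting, and where no value in the report bears on it the cause was not tested.

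The genes called in acute Doxo vs. Ctrl numbered 1 in hearts below 100 CPM of *Myl4*, and 1 to 3 with 1 heart left out (1 without Ctrl heart 9, 11 or 13 or without Doxo heart 13). In Doxo-NMN vs. Doxo the number was 1 at a fold change of at least 2, under limma voom and without both Doxo hearts 6 and 8. It was 0 without a low-count filter, with only the 2 groups compared and in each *Myl4* subset, and 0 to 3 with 1 heart left out. In Doxo-NMN vs. Ctrl it was 0 below 100 CPM of *Myl4*. In the acute against chronic Doxo effect it was 5 under limma voom, 0 without a low-count filter and 4 without both hearts, and 0 to 1 with 1 heart left out. Of the 8 relations with *Pdk4*, 0 passed by r without both hearts and 4 to 8 without heart 8 or 6. By rho 1 passed without both hearts and 2 without either.

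Signs that changed in acute Doxo vs. Ctrl were those of *Cpt1a* (limma voom -0.11, a minimum of 10 counts per heart -0.0018, no low-count filter -0.018, at or above 100 CPM of *Myl4* -0.14, without both hearts -0.10), *Plin2* (DESeq2 -0.29, limma voom -0.40, at or above 100 CPM -0.43, without both hearts -0.36), *Acot2* (limma voom -0.43, at or above 100 CPM -0.67, without both hearts -0.27), *Pdk4* (below 100 CPM 0.026) and *Acot1* (at or above 100 CPM -0.081). In Doxo-NMN vs. Doxo they were those of *Pdk4* (at or above 100 CPM 0.30, without both hearts 0.22), *Angptl4* (without both hearts 0.52), *Ucp3* (limma voom 1.61, at or above 100 CPM 0.76, without both hearts 1.18), *Cpt1b* (0.062, 0.17 and 0.0034 in the same order) and *Plin2* (DESeq2 0.27, limma voom 0.28, at or above 100 CPM 0.23, without both hearts 0.35). In Doxo-NMN vs. Ctrl they were those of *Acot1* (limma voom -0.17, at or above 100 CPM -0.49), *Cpt1a* (limma voom -0.00031, at or above 100 CPM -0.077) and *Cd36* (below 100 CPM -0.022). In the chronic study limma voom gave *Pdk4* -0.22 in Doxo vs. Ctrl and *Acot1* 0.27 and *Cpt1a* 0.034 in Doxo-NMN vs. Doxo. In the acute against chronic effect *Plin2* was -0.023 under DESeq2, -0.17 under limma voom and -0.12 without both hearts, and *Cpt1a* 0.090 with acute hearts below 100 CPM of *Myl4*. The log2 ratio of *Cpt1a* to *Cpt1b* differed by -0.069 in Doxo-NMN vs. Doxo at or above 100 CPM, and by 0.47 in Doxo-NMN vs. Ctrl below it, where it passed (exact permutation test, adjusted p = 0.0096). The *Cpt1b* counts in this ratio are uncertain.

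Replicate numbers did not pair the hearts: deviations of same-numbered hearts correlated at -0.68 to 0.65 (acute, 18 of 39 pairs over 0.1) and -0.30 to 0.46 (chronic, 5 of 16). In 4 of 78 acute and 4 of 32 chronic checks, made from each side of a pair, a heart correlated best with its own number. With the replicate block 3 of the 9 genes were called in acute Doxo vs. Ctrl (*Pdk4* -1.35, *Angptl4* -2.58 and *Ucp3* -2.07, not *Acot1*; 29.8% of all genes), 0 in Doxo-NMN vs. Doxo (17.2%) and 2 in Doxo-NMN vs. Ctrl (6.76%). Signs that changed with the block were *Cpt1a* -0.023, *Plin2* -0.20 and *Acot2* -0.17 in Doxo vs. Ctrl, *Ucp3* 0.77 and *Plin2* 0.14 in Doxo-NMN vs. Doxo, *Acot1* -0.075 in Doxo-NMN vs. Ctrl, and *Pdk4* -0.061, *Angptl4* -0.21 and *Ucp3* -0.17 in chronic Doxo vs. Ctrl.

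With 1 heart left out, values that crossed 0 ranged as follows. In acute Doxo vs. Ctrl *Cpt1a* was -0.090 to 0.058, *Cpt1b* -0.12 to 0.0030, *Plin2* -0.31 to 0.23 and *Acot2* -0.23 to 0.16, each lowest without Doxo heart 8. In Doxo-NMN vs. Doxo *Ucp3* was -0.29 to 0.58, *Cpt1a* -0.018 to 0.13 and *Plin2* -0.31 to 0.30, each highest without Doxo heart 8. In Doxo-NMN vs. Ctrl *Acot1* was -0.22 to 0.11 and *Plin2* -0.15 to 0.015. In chronic Doxo vs. Ctrl *Pdk4* was -0.051 to 0.22, *Angptl4* -0.14 to 0.46, *Ucp3* -0.20 to 0.23 and *Acot1* -0.41 to 0.033. In chronic Doxo-NMN vs. Doxo *Ucp3* was -0.37 to 0.17, *Acot1* -0.24 to 0.22 and *Plin5* -0.036 to 0.13, and in chronic Doxo-NMN vs. Ctrl *Ucp3* was -0.33 to 0.086, *Cpt1a* -0.028 to 0.11 and *Plin5* -0.19 to 0.043. In the acute against chronic effect *Plin2* was -0.082 to 0.44 and *Plin5* -0.24 to 0.0079. The *Cpt1a* to *Cpt1b* ratio differed by -0.052 to 0.10 in acute Doxo vs. Ctrl and by -0.057 to 0.062 in chronic Doxo-NMN vs. Doxo.

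Depth limited *Angptl4* in the lowest chronic Doxo heart, where it had 6 counts (0.330 CPM), near the limit of 3 counts. Leaving out both hearts was chosen after seeing the data.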
